A study of Danio rerio with 22 samples.

Results

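The Tudor domain genes of the germ line were followed through sorted zebrafish (Danio rerio) germ cells. They were tdrd1 (ENSDARG00000007465), tdrd5 (ENSDARG00000071450), tdrd6 (ENSDARG00000070052), tdrd7a (ENSDARG00000032808), tdrd9 (ENSDARG00000013453) and tdrd12 (ENSDARG00000075217). These genes were chosen by gene identity, with earlier results of these data known, and they make 6 of the 32057 genes measured in each library. All 6 passed the filter on low counts in every comparison made here.

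The germ cells came from larvae whose presumptive sex was set by a cross with the Nadia strain, which carries a W locus in females. WW Nadia females were mated with Tg(ziwi:GFP) fish of the Tüpfel long-fin (TL) strain to give the W-hybrid, the presumptive females. ZZ Nadia males were mated with Tg(ziwi:GFP) females of TL background to give the Z-hybrid, the presumptive males. GFP-positive germ cells of pooled larvae were sorted at 10, 12 and 14 days post fertilization (dpf) and sequenced in bulk. Smart-seq HT was used for 3 batches of each hybrid at 10 dpf, 4 of each at 12 dpf and 2 libraries of 10-dpf trunk cells, the negative control, whose labels give the Nadia/TL hybrid but not which one. At 12 and 14 dpf, 2 batches of the W-hybrid and 1 of the Z-hybrid were sequenced by Quartz-seq. Every germ cell library therefore shares the transgene and the TL background. GFP is driven by the promoter of ziwi (piwil1), itself a gene of the pathway described here, so the sort chose cells by the activity of that promoter. The Nadia parent was the mother in the W-hybrid and the father in the Z-hybrid, so the W locus and the direction of the cross cannot be told apart. Nor can age and method at 10 and 14 dpf, since each was measured by 1 method.

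Tudor domains are protein folds that bind methylated arginines or lysines. In germ cells, Piwi proteins carry methylated arginines, and the Tudor proteins that bind them gather Piwi proteins, helicases and RNA into germ granules, the cytoplasmic bodies also called nuage. There, Piwi-interacting RNAs (piRNAs) are made and used to silence transposons. In zebrafish, loss of the piRNA pathway leads to loss of germ cells, and fish without germ cells develop as males. The proteins of tdrd1 and tdrd6 are scaffolds with several Tudor domains. Zebrafish Tdrd1 binds Piwi proteins, and zebrafish Tdrd6 binds Bucky ball, the organizer of germ plasm. The proteins of tdrd5 and tdrd7a join Tudor domains to LOTUS domains, which in flies bind the Vasa helicase. Those of tdrd9 and tdrd12 join a Tudor domain to a helicase or helicase-like domain, and in the mouse both act in the production of piRNAs against transposons.

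The libraries held between 13556577 and 37224647 counts. The germ cell markers ddx4, piwil1, piwil2, dnd1, nanos3, dazl and ca15b summed to 2730 to 4840 TPM, a transcript level scaled for gene length and depth, in the 14 germ cell libraries made by Smart-seq and to 14900 to 17800 TPM in the 6 Quartz-seq libraries, against 0.64 and 0.81 TPM in trunk, where none of the 7 passed 1 TPM. One Quartz-seq library stood apart: in the 12-dpf W-hybrid, 7 muscle genes summed to 2430 TPM in replicate 2 and 163 TPM in replicate 1, against 24.7 TPM in the Z-hybrid library of that age and method. The single Z-hybrid libraries by Quartz-seq held fewer genes with at least 10 counts, 16597 at 12 dpf and 16617 at 14 dpf, than the W-hybrid libraries by that method, with 18966 to 20378. The 12-dpf one was also the shallowest of the 6, with 13828829 counts. The 2 trunk libraries also differed from each other in muscle genes, with 5120 and 91 TPM. By Smart-seq, 4 blood genes summed to 83.7 TPM in replicate 3 of the 12-dpf Z-hybrid, against 2.78 to 9.67 TPM in its other replicates. Within that group all 6 Tudor genes were lowest in TPM in replicate 3. The part of the blood genes in this was not tested.

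All 6 Tudor genes were found in every germ cell library and were near absent from trunk cells. Levels between genes are compared here in TPM. Among the 14 Smart-seq germ cell libraries, the lowest, median and highest levels were 197, 289.6 and 416 TPM for tdrd1, 106, 191 and 388 TPM for tdrd9, and 115, 152 and 227 TPM for tdrd7a. They were 57.5, 81.5 and 139.7 TPM for tdrd5, 38.8, 62.5 and 96.2 TPM for tdrd6, and 14.5, 22.1 and 36.7 TPM for tdrd12. The scaffold gene tdrd1 thus stood highest and the helicase-like gene tdrd12 lowest. The range of tdrd12 lay below that of every other member, while the ranges of tdrd1, tdrd9 and tdrd7a overlapped, as did those of tdrd5 and tdrd6. Among all 32057 genes, tdrd1 ranked between 405 and 894 by TPM in these libraries and tdrd12 between 3768 and 6491.

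**Figure D1:**
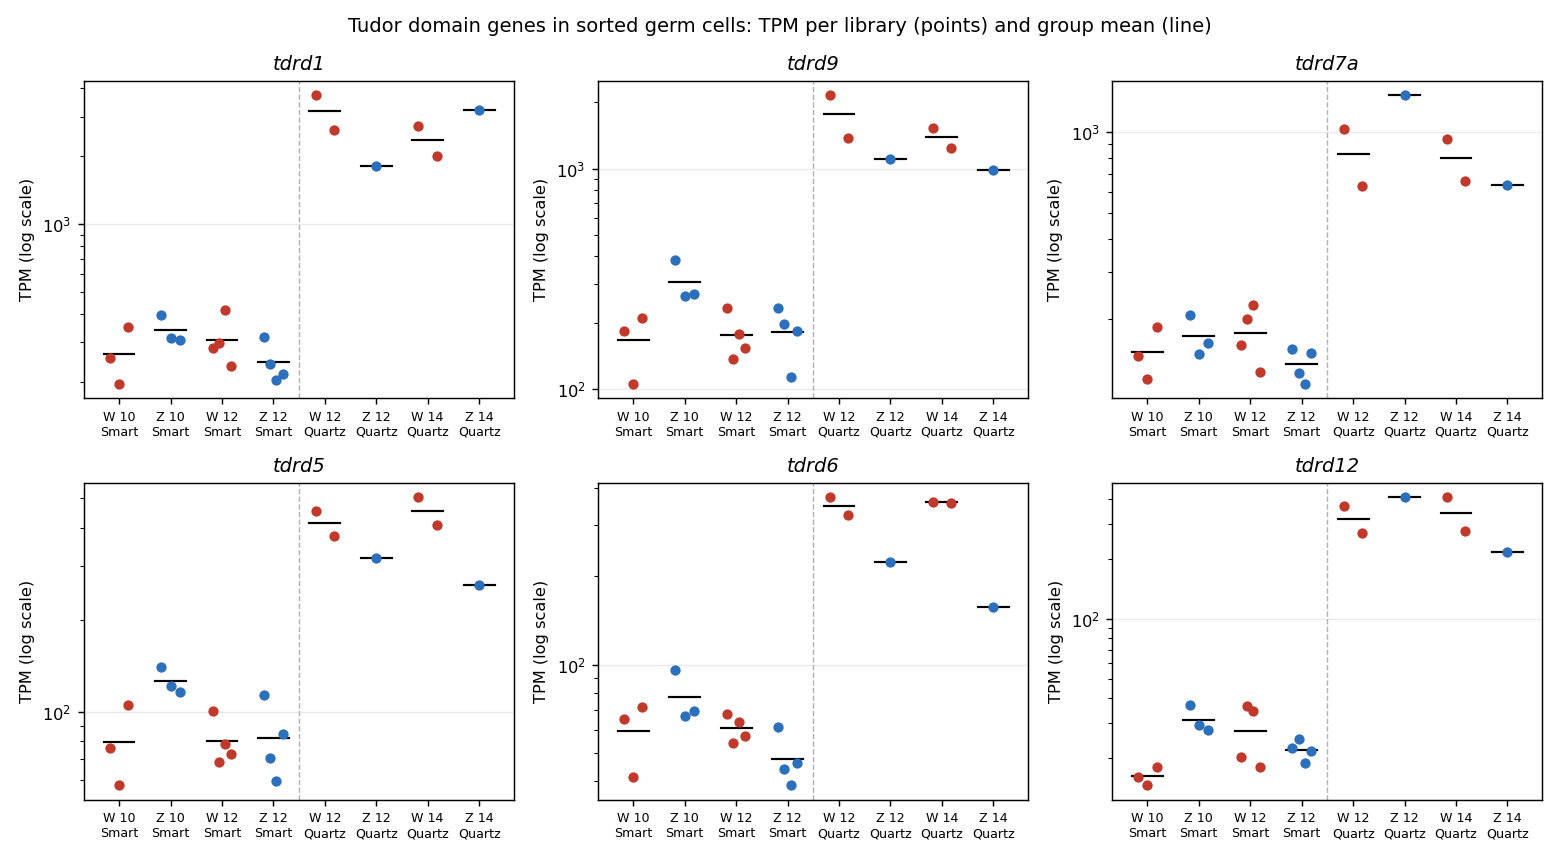
TPM (log scale) of each Tudor gene in every germ cell library. Points are libraries of the W-hybrid (red) and the Z-hybrid (blue) by age in dpf and method, lines are group means (of 1 library for the Z-hybrid by Quartz-seq), and the dashed line parts Smart-seq from Quartz-seq. At 10 dpf the W-hybrid points of tdrd5, tdrd9 and tdrd12 all lie below the Z-hybrid points, and by Quartz-seq every gene lies above its Smart-seq range.

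Within a library the order of the genes was nearly fixed. In 10 of the 14 Smart-seq libraries it ran tdrd1, tdrd9, tdrd7a, tdrd5, tdrd6 and tdrd12, from high to low, and in the other 4 libraries tdrd7a stood above tdrd9. Those 4 were replicate 2 of the 10-dpf W-hybrid, replicates 2 and 3 of the 12-dpf W-hybrid and replicate 3 of the 12-dpf Z-hybrid. The gene tdrd1 was highest in 20 of 20 germ cell libraries, and tdrd5 was above tdrd6 in 20 of 20. By Quartz-seq tdrd12 moved up, standing above tdrd6 in 3 of 6 libraries and above tdrd5 in 1 of 6. Together, the 6 genes took 0.203% to 0.322% of all counts in the 10-dpf W-hybrid and 0.326% to 0.408% in the 10-dpf Z-hybrid. At 12 dpf by Smart-seq the hybrids overlapped, with 0.246% to 0.353% in the W-hybrid and 0.206% to 0.311% in the Z-hybrid. These shares are scaled to library size alone.

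The trunk libraries were used to ask how far these transcripts were absent from trunk cells. Marker genes of gonadal somatic cells summed to 0.86 and 1.02 TPM in trunk, and those of epidermis to 9720 and 21500 TPM. The trunk libraries therefore do not show the levels of these transcripts in gonadal somatic cells, which were not measured. The summed counts in the 2 trunk libraries were 13 for tdrd1, 8 for tdrd5, 35 for tdrd6, 31 for tdrd9 and 6 for tdrd12, and no read of tdrd7a was counted in either. The trunk counts of tdrd5 came from 1 library, with 8 and 0, and those of tdrd9 were 29 and 2. Scaled to library size, the 10-dpf germ cell mean (n = 6) was 2370-fold that of trunk for tdrd1, with a 95% counting interval of 1380 to 4440. It was 1020-fold for tdrd5 (519 to 2370), 835-fold for tdrd9 (589 to 1230), 409-fold for tdrd12 (188 to 1110) and 350-fold for tdrd6 (252 to 503). These intervals are exact Poisson intervals on the trunk counts and cover counting error only. With TMM scaling the fitted folds were smaller, at 1329 for tdrd1, 573 for tdrd5, 474 for tdrd9, 217.5 for tdrd12 and 202 for tdrd6. Those of tdrd1, tdrd6 and tdrd9 lay below the counting intervals, which do not cover the choice of scaling. For tdrd7a the germ cell mean was at least 2440-fold higher, taking 3 counts in a trunk library as the limit of a count of 0. All 6 genes were called higher in germ cells (edgeR quasi-likelihood test, Benjamini-Hochberg adjusted p between 2.48e-09 and 4.41e-07). Here and below a gene is called where the adjusted p is under 0.05, the fold reaches 1.5 and the group with the higher level averages over 5 TPM, and 23.7% of the 22024 genes tested were called higher in germ cells. In bulk samples, fewer cells that express a gene and less RNA per cell cannot be told apart.

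The main question of the study was whether presumptive female and male germ cells differ. At 10 dpf, 2 of the 6 genes were called lower in W- than in Z-hybrid germ cells, where 4.07% of the 20080 genes tested were called lower and 3.06% higher. They were the helicase genes tdrd12 and tdrd9. The LOTUS gene tdrd5 had an adjusted p under 0.05 but fell short of the fold, and the scaffold genes tdrd1 and tdrd6 and the LOTUS gene tdrd7a did not pass the test.

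The level of tdrd12, which in zebrafish is needed for germ cell development, was 16.1, 14.5 and 17.9 TPM in W-hybrid replicates 1 to 3, against 36.7, 29.1 and 27.6 TPM in Z-hybrid replicates 1 to 3. The highest W-hybrid library lay below the lowest Z-hybrid library. The fitted difference, W against Z, was −0.83 on the log2 scale (SE 0.14), a 1.78-fold lower level, with a Benjamini-Hochberg adjusted p of 0.0020 in edgeR's test. In counts the groups also did not overlap, with 921, 872 and 1042 against 1959, 1725 and 1733. The effective length of tdrd12, which is weighted over its 3 annotated transcripts, was 3910 to 4157 bases in the W-hybrid and 4164 to 4329 bases in the Z-hybrid. These lengths did not overlap, and the share of all genes for which this holds was not counted. TPM divides by effective length and the fit does not, while the fit scales libraries by TMM and TPM does not. The mean TPM of tdrd12 was 0.518 of that in the Z-hybrid where the fitted ratio was 0.562. For tdrd9, whose length overlapped between the hybrids, these values were 0.542 and 0.61. Whether the transcripts of tdrd12 were used in different shares was not tested.

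The level of tdrd9, whose mouse counterpart unwinds RNA beside a Piwi protein, was 183, 106 and 211 TPM in W-hybrid replicates 1 to 3, against 388, 265 and 271 TPM in the Z-hybrid. The groups did not overlap, and replicate 2 of the W-hybrid was the lowest. The difference was −0.71 on the log2 scale (SE 0.18), 1.64-fold lower, with an adjusted p of 0.017 by edgeR's test. Only 1 transcript is annotated for tdrd9, and its effective length was 4380 to 4393 bases in the W-hybrid and 4383 to 4391 bases in the Z-hybrid. The length of tdrd9 thus overlapped between the hybrids.

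The level of tdrd5, required in mouse male germ cells for transposon silencing, was 76.4, 57.5 and 105 TPM in the W-hybrid, against 139.7, 121 and 116 TPM in the Z-hybrid. The groups did not overlap here either, but the difference of −0.49 on the log2 scale (SE 0.15; 1.4-fold lower, edgeR adjusted p = 0.043) was below the fold asked for. In TPM, 3 of the 6 genes had every W-hybrid library below every Z-hybrid library, which held for 22.6% of the genes tested, while 9.28% lay the other way. TPM is not scaled by TMM as the fit is. Rescaled by TMM factors, the Z-hybrid mean fell from 125.7 to 104.4 TPM for tdrd5 and from 31.1 to 25.8 TPM for tdrd12. Overlap after this rescaling was not tested.

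The other genes overlapped between the hybrids at 10 dpf. The level of tdrd1 was 256, 197 and 350.1 TPM in the W-hybrid, against 397, 314 and 308 TPM for the Z-hybrid, a log2 difference of −0.17 (SE 0.15, edgeR adjusted p = 0.50). That of tdrd6 was 65.5, 41.5 and 71.7 TPM against 96.2, 66.9 and 69.5 TPM, a log2 difference of −0.20 (SE 0.16, edgeR adjusted p = 0.42). The smallest difference was that of tdrd7a, a germ plasm gene, with 146, 119.7 and 188 TPM against 208, 149 and 163 TPM and a log2 value of −0.019 (SE 0.14, edgeR adjusted p = 0.95). For all 6 genes W-hybrid replicate 2 was the lowest library of this age in TPM, and Z-hybrid replicate 1 was the highest. The germ cell markers had the same lowest and highest libraries, with sums of 2730 and 4840 TPM, so this order was not particular to the 6 genes. TPM is not scaled by TMM, and the share of all genes with this order was not counted.

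**Figure D2:**
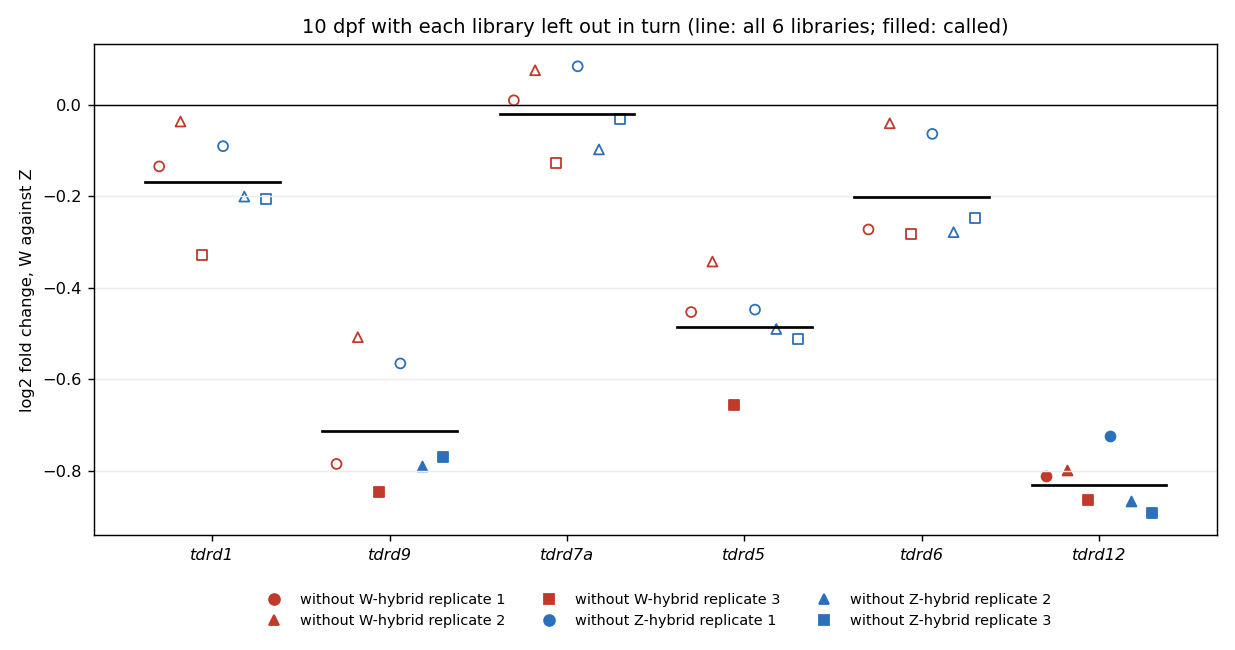
Log2 fold change of each Tudor gene, W- against Z-hybrid at 10 dpf, with each of the 6 libraries left out in turn (symbols, filled where the fold and the adjusted p pass) and with all 6 (black line). The values of tdrd12 lie between −0.89 and −0.72 and are filled in all 6 fits, and those of tdrd9 lie between −0.85 and −0.51 and are filled in 3.

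Both calls were checked by leaving out each library. The gene tdrd12 was called in 6 of 6 such fits, with log2 values between −0.89 and −0.72 and edgeR adjusted p between 0.0019 and 0.021. The gene tdrd9 was called in 3 of 6, and its call was lost without W-hybrid replicate 1 (edgeR adjusted p = 0.060), W-hybrid replicate 2 (0.058) or Z-hybrid replicate 1 (0.085). The gene tdrd5 was called once, without W-hybrid replicate 3 (log2 −0.66, edgeR adjusted p = 0.0044). When the 14 Smart-seq germ cell libraries shared one estimate of the spread, a fit added after the data were seen, neither gene was called, at edgeR adjusted p of 0.074 for tdrd12 and 0.11 for tdrd9. The log2 values in that fit were −0.82 and −0.70, and 183 genes were called in place of 1433. With all 20 germ cell libraries in one fit, without trunk, the calls were lost as well, at log2 values of −0.82 for tdrd12 (edgeR adjusted p = 0.13) and −0.70 for tdrd9 (0.19). Below, all libraries in one fit means these 20. At 10 dpf the germ cell markers summed to 2730 to 4020 TPM in the W-hybrid, against 3860 to 4840 TPM in the Z-hybrid, and their part in the lower levels of the helicase genes was not tested.

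Dividing each level by that of tdrd1, the highest member, cancels any factor that the genes of a library share. At 10 dpf the ratio of tdrd9 to tdrd1 was 0.716, 0.539 and 0.604 in the W-hybrid and 0.976, 0.846 and 0.879 in the Z-hybrid. The ratio of tdrd12 to tdrd1 was 0.0628, 0.0736 and 0.0510 in the W-hybrid and 0.0924, 0.0927 and 0.0895 in the Z-hybrid. That of tdrd5 was 0.292 to 0.300 and 0.352 to 0.386. For these 3 of the 5 genes the W-hybrid ratios lay below those of the Z-hybrid without overlap, as did those of 10.8% of the genes tested. The ratio of tdrd7a lay the other way, as did 13.1% of the genes, with 0.537 to 0.608 in the W-hybrid and 0.475 to 0.530 in the Z-hybrid, and that of tdrd6 overlapped. A ratio of levels shows unequal differences between genes and not which of the genes differed.

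**Figure D3:**
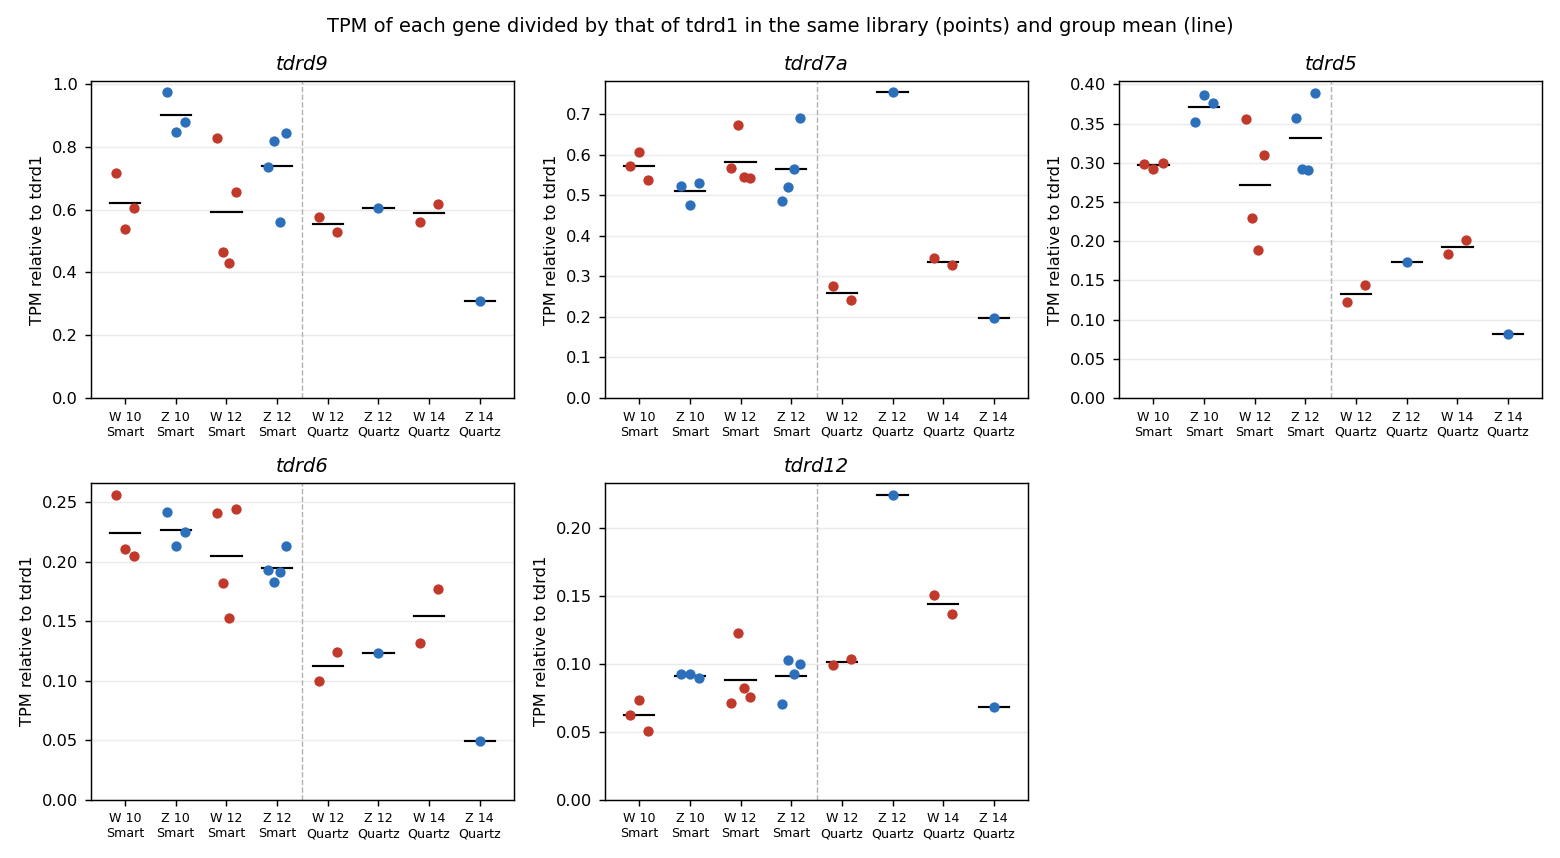
TPM of 5 Tudor genes divided by the TPM of tdrd1 in the same library, by hybrid, age in dpf and method (red W-hybrid, blue Z-hybrid, line group mean). At 10 dpf the W-hybrid points of tdrd5, tdrd9 and tdrd12 lie below the Z-hybrid points, at 12 dpf by Smart-seq the hybrids overlap for all 5 genes, and at 14 dpf both W-hybrid points lie above the Z-hybrid point for all 5.

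At 12 dpf by Smart-seq, with 4 batches of each hybrid, 0 of the 6 genes were called, and 0.145% of the 20066 genes tested were called in either direction. DESeq2 called 0 of the 6 as well, and 0 of the 6 had an unadjusted p under 0.05 in edgeR's test, against 9.53% of all genes. The level of tdrd12 was 20.2, 36.5, 34.3 and 17.9 TPM in W-hybrid replicates 1 to 4, against 22.4, 24.8, 18.9 and 21.7 TPM in the Z-hybrid. All 4 Z-hybrid libraries lay within the W-hybrid range, which was wide, and the log2 difference was 0.21 (SE 0.23, edgeR adjusted p = 0.77). The level of tdrd9 was 233, 138, 178 and 154 TPM in the W-hybrid, against 234, 198, 114 and 183 TPM for the Z-hybrid, a log2 difference of −0.11 (SE 0.20, edgeR adjusted p = 0.87). The hybrids thus overlapped for both helicase genes, and they overlapped in TPM for all 6. Most genes did so too, since only 3.08% of those tested lay higher in the W-hybrid without overlap and 1.5% lower. The log2 differences of the other genes were −0.076 (SE 0.18) for tdrd5, 0.27 (SE 0.18) for tdrd1, 0.29 (SE 0.16) for tdrd6 and 0.33 (SE 0.18) for tdrd7a, with edgeR adjusted p between 0.56 and 0.91.

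Whether the difference between the hybrids changed from 10 to 12 dpf was tested directly. The interaction of hybrid and age in the 14 Smart-seq libraries was above 0 for all 6 genes, from 0.33 (tdrd7a) to 1.02 (tdrd12) on the log2 scale, but passed the test for none. For tdrd12 it was 1.02 (SE 0.30, unadjusted p = 0.0026, edgeR adjusted p = 0.15), and for tdrd9 0.59 (SE 0.29, edgeR adjusted p = 0.31). Of the 21675 genes tested, 0% were called for this interaction, 17.2% had an unadjusted p under 0.05 (2 of the 6, tdrd6 and tdrd12), and DESeq2 called 475 genes and 0 of the 6. The median of this interaction over all genes was 0.030, and the share of genes above 0 was not counted. The interaction shares its 10-dpf libraries with the comparison of the hybrids at that age.

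**Figure D4:**
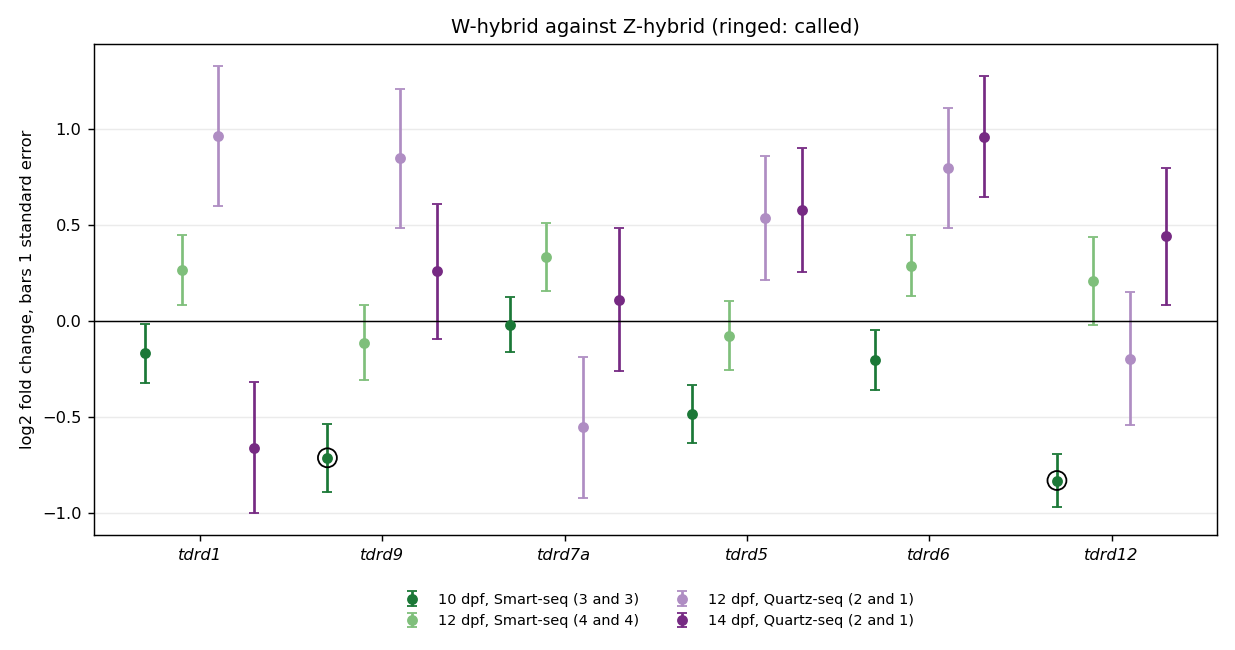
Log2 fold change, W- against Z-hybrid, of each Tudor gene in the 4 comparisons (points, with bars of 1 standard error). The legend gives the number of W- and Z-hybrid libraries, and rings mark called genes. Only tdrd9 and tdrd12 at 10 dpf are ringed, and the bars of the Quartz-seq comparisons, with 2 libraries against 1, are longer than those of the Smart-seq comparisons.

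Quartz-seq gave the comparison at 14 dpf, the oldest age, and a second one at 12 dpf. With 1 Z-hybrid library at each age, the spread comes from the W-hybrid batches and the single Z-hybrid library is assumed to vary as they do. At 14 dpf 0 of the 6 genes were called by edgeR and 1 (tdrd6) by DESeq2, where edgeR called 9.18% of the 23154 genes tested. In counts, edgeR called 2126 genes and DESeq2 3221, and all libraries in one fit called 4442. An unadjusted p under 0.05 was found for 1 of the 6 (tdrd6) and for 28.4% of all genes. The median log2 difference of all genes was 0.31 at 14 dpf and 0.33 at 12 dpf, so a value near these does not set a gene apart from the rest.

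The level of tdrd6 at 14 dpf was 359 and 357 TPM in the W-hybrid, against 157 TPM in the Z-hybrid. This was the widest gap among the 6 genes in that comparison, with a log2 value of 0.96 (SE 0.31, edgeR adjusted p = 0.068). It was called with DESeq2 (log2 0.93, adjusted p = 0.018), without a filter on low counts, with at least 10 counts asked of every library, with library size in place of TMM scaling, and with all libraries in one fit, and it was not called when either W-hybrid batch was left out. Counts of tdrd6 differed from a whole number by more than 0.005 in 21 libraries, the only gene of the 6 for which this was so, since RSEM shared some of its reads with other genes. Its values depend to that extent on how the reads were divided. With a replicate block the log2 values of tdrd6, tdrd5 and tdrd12 at 14 dpf were 1.04, 0.74 and 0.68. The block changed the calls and rests on an assumed placing of the Z-hybrid library, as described with the other alternatives below. The level of tdrd1 lay the other way at 14 dpf, with 2729 and 2014 TPM in the W-hybrid against 3198 TPM for the Z-hybrid, a log2 value of −0.66 (SE 0.34, edgeR adjusted p = 0.23). The other 4 genes had both W-hybrid batches above the Z-hybrid library, with log2 values from 0.11 (SE 0.37, tdrd7a) to 0.58 (SE 0.32, tdrd5) and edgeR adjusted p between 0.26 and 0.87.

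In TPM, 5 of 6 genes at 14 dpf had both W-hybrid libraries above the Z-hybrid library, which held for 50.9% of the genes tested. The ratios to tdrd1 lay higher in both W-hybrid batches for all 5 other genes, as for 60.7% of the genes tested, and tdrd1, the divisor, lay lower there. The ratio of tdrd6 to tdrd1 was 0.132 and 0.177 in the W-hybrid and 0.049 in the Z-hybrid, and that of tdrd9 was 0.560 and 0.619 against 0.309. At 10 dpf the ratios of tdrd5, tdrd9 and tdrd12 had lain lower in the W-hybrid. The difference between these ages was not tested, since they were measured by different methods.

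At 12 dpf by Quartz-seq 0 of the 6 genes were called by edgeR or by DESeq2, where edgeR called 21.5% of the genes tested. An unadjusted p under 0.05 was found for 3 of the 6 (tdrd1, tdrd6 and tdrd9) and for 38.1% of all genes. The level of tdrd1 was 3726 and 2609 TPM in the W-hybrid, against 1819 TPM for the Z-hybrid, a log2 value of 0.96 (SE 0.36, edgeR adjusted p = 0.072). The level of tdrd7a was 1028 and 631 TPM against 1372 TPM, a log2 value of −0.56 (SE 0.37, edgeR adjusted p = 0.28). These genes therefore lay on opposite sides, and the ratio of tdrd7a to tdrd1 was 0.276 and 0.242 in the W-hybrid and 0.754 in the Z-hybrid. The ratios of 4 of the 5 genes (tdrd5, tdrd7a, tdrd9 and tdrd12) lay lower in both W-hybrid libraries, as did those of 53.9% of the genes tested. The other values were 0.85 (SE 0.36) for tdrd9, 0.80 (SE 0.31) for tdrd6, 0.54 (SE 0.32) for tdrd5 and −0.20 (SE 0.35) for tdrd12, with edgeR adjusted p between 0.080 and 0.70. Muscle genes summed to 163 and 2430 TPM in these W-hybrid libraries and to 24.7 TPM in the Z-hybrid library. The part of this in the values was not tested, and 0 of the 6 genes were called without either W-hybrid library.

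The 12-dpf germ cells were measured by both methods, so the methods could be compared within the W-hybrid. All 6 genes were called higher by Quartz-seq than by Smart-seq, where 19.8% of the 23931 genes tested were called higher and 17.5% lower. The log2 difference was 3.26 (SE 0.27) for tdrd12, 3.01 (SE 0.23) for tdrd1, 2.98 (SE 0.25) for tdrd9, 2.18 (SE 0.20) for tdrd6, 2.01 (SE 0.22) for tdrd5 and 1.86 (SE 0.23) for tdrd7a, with edgeR adjusted p between 4.97e-09 and 2.09e-06. The median of all genes was −0.11. The level of tdrd12 was 17.9 to 36.5 TPM by Smart-seq and 369.5 and 270.1 TPM by Quartz-seq, and tdrd1 ranked between 16 and 43 of all genes in the 6 Quartz-seq libraries. The 6 genes took 1.19% and 1.64% of all counts by Quartz-seq and 0.246% to 0.353% by Smart-seq in this group. Of 16 other piRNA pathway genes, 9 were called higher by Quartz-seq and 4 lower, and of 29 other Tudor domain genes 19 were called higher and 3 lower. All 6 Tudor genes of the germ line remained called with either Quartz-seq library left out. The experiment and the method cannot be told apart in these differences.

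The difference between the hybrids at 12 dpf was also compared between the methods. The interaction of hybrid and method was called for 0 of the 6 genes by edgeR, where edgeR called 33.7% of genes. DESeq2 called 1 of the 6 (tdrd7a), and the share of all genes it called is not given here. An unadjusted p under 0.05 was found for 2 of the 6 (tdrd1 and tdrd9) and 44.2% of all genes. It was 1.103 for tdrd9 (SE 0.44, edgeR adjusted p = 0.058), 0.84 for tdrd1 (SE 0.40, 0.11), 0.76 for tdrd5 (SE 0.38, 0.13) and 0.66 for tdrd6 (SE 0.34, 0.14), and lay below 0 for tdrd7a at −0.74 (SE 0.39, 0.15) and tdrd12 at −0.26 (SE 0.45, 0.68). The median of this interaction over all genes tested was 0.502, so a value near it does not set a gene apart from the rest. The gene tdrd9 was called without 12-dpf Smart-seq W-hybrid replicate 1 or Z-hybrid replicate 3, and tdrd7a without 12-dpf Quartz-seq W-hybrid replicate 1.

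**Figure D5:**
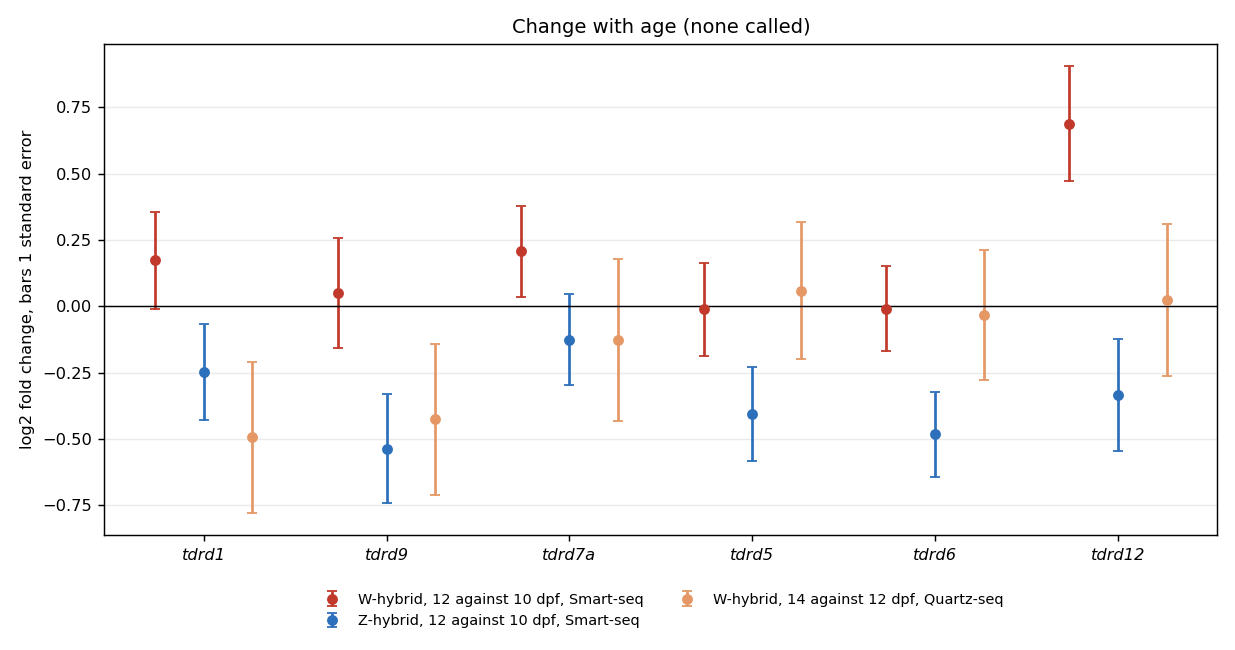
Log2 fold change with age of each Tudor gene (points, with bars of 1 standard error) in the W-hybrid and the Z-hybrid from 10 to 12 dpf by Smart-seq and in the W-hybrid from 12 to 14 dpf by Quartz-seq. No gene was called. The largest value is that of tdrd12 in the W-hybrid, 0.69, and all 6 Z-hybrid points lie below 0.

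Change with age was tested within each hybrid. From 10 to 12 dpf in the W-hybrid 0 of the 6 genes were called, and neither was any of the 21675 genes tested (0%), although 1 of the 6 (tdrd12) and 12.7% of all had an unadjusted p under 0.05 in edgeR's test and DESeq2 called 103 genes and 0 of the 6. The level of tdrd12 went from 14.5 to 17.9 TPM at 10 dpf to 17.9 to 36.5 TPM at 12 dpf, with the highest 10-dpf library just above the lowest 12-dpf library. Its log2 value was 0.69 (SE 0.22, unadjusted p = 0.0043, edgeR adjusted p = 0.25). The other values in the W-hybrid were small, from −0.012 (SE 0.18) for tdrd5 and −0.0083 (SE 0.16) for tdrd6 to 0.21 (SE 0.17) for tdrd7a.

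In the Z-hybrid over the same interval 0 of the 6 genes were called by edgeR or by DESeq2, where edgeR called 1.58% of genes. An unadjusted p under 0.05 was found for 3 of the 6 (tdrd5, tdrd6 and tdrd9) and 19.8% of all genes. The median log2 value of all genes was 0.004, and the share of genes below 0 was not counted. The Z-hybrid libraries of 10 dpf also enter the comparison of the hybrids at 10 dpf and the interaction of hybrid and age. All 6 values of the Tudor genes lay below 0. They were −0.54 for tdrd9 (SE 0.21, edgeR adjusted p = 0.16), −0.48 for tdrd6 (SE 0.16, 0.11), −0.41 for tdrd5 (SE 0.18, 0.21), −0.33 for tdrd12 (SE 0.21, 0.39), −0.25 for tdrd1 (SE 0.18, 0.47) and −0.13 for tdrd7a (SE 0.17, 0.72). Without Z-hybrid replicate 1 of 12 dpf, tdrd6 was called (log2 −0.59, edgeR adjusted p = 0.031). In TPM the level of tdrd9 was 265 to 388 at 10 dpf and 114 to 234 at 12 dpf, without overlap, and that of tdrd12 was 27.6 to 36.7 against 18.9 to 24.8, also without overlap. The levels of tdrd5 (116 to 139.7 against 59.2 to 114 TPM) and tdrd6 (66.9 to 96.2 against 38.8 to 61.4 TPM) did not overlap between the ages either. A gap in this direction was thus seen for 4 of the 6 genes and for 15.9% of the genes tested, while 3.24% lay the other way. TPM is not scaled by TMM as the fit is, and overlap after such rescaling was not tested.

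From 12 to 14 dpf, W-hybrid germ cells showed 0 of the 6 genes called by edgeR or by DESeq2, where edgeR called 0.013% of genes. An unadjusted p under 0.05 was found for 0 of the 6 and 4.48% of all genes. The values of the helicase gene tdrd9 and the scaffold gene tdrd1 were −0.43 (SE 0.29) and −0.49 (SE 0.29), and those of the other 4 lay between −0.13 (SE 0.30, tdrd7a) and 0.058 (SE 0.26, tdrd5). The edgeR adjusted p of each was 1. The level of tdrd6 stayed between 322 and 372 TPM in all 4 libraries. Change with age in the Z-hybrid by Quartz-seq has 1 library at each age and was not tested here. There, tdrd1 was 1819 TPM at 12 dpf and 3198 TPM at 14 dpf, and tdrd7a was 1372 and 634 TPM.

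The neighbours of these genes in the pathway were read from a list of 21 piRNA pathway genes, of which 16 were matched in the files. At 10 dpf 1 of the 16 was called lower in the W-hybrid and 0 higher. Of all genes, 4.07% were called lower and 3.06% higher. The median of the 16 was −0.059 on the log2 scale against −0.035 for all genes. The lower gene was piwil2, the Piwi gene zili, at −0.59 (SE 0.19, edgeR adjusted p = 0.0499). The value of piwil1, the other Piwi gene, was −0.31 (edgeR adjusted p = 0.20) and that of ddx4, the Vasa helicase gene, was −0.13 (edgeR adjusted p = 0.57). At 12 dpf by Smart-seq 0 of 16 were called, where 0.145% of all genes were. At 14 dpf henmt1, whose product methylates the ends of piRNAs, was higher in the W-hybrid by 1.36 (SE 0.38, edgeR adjusted p = 0.038), and buc, the Bucky ball gene, by 3.20 (SE 0.45, edgeR adjusted p = 0.0018). These were the 2 called of the 16, where 9.18% of all genes were called. The median of the 16 was 0.28 against 0.31 for all genes. At 12 dpf by Quartz-seq 6 of 16 were called higher and 1 lower, where 21.5% of all genes were called, and the median of the 16 was 0.75 against 0.33 for all genes. The largest were pld6, the piRNA-processing nuclease of the mitochondrial surface, at 2.16 (SE 0.37, edgeR adjusted p = 0.0019), tdrkh, a mitochondrial Tudor protein gene, at 2.05 (SE 0.33, 0.0013), and tdrd15 at 1.39 (SE 0.32, 0.0085). The gene mybl1, whose mouse counterpart turns on piRNA genes in meiotic male germ cells, was lower there (log2 −1.13, SE 0.32, edgeR adjusted p = 0.023). Each of these Quartz-seq values rests on 1 Z-hybrid library. The level of tdrkh was 171 TPM in the Z-hybrid library of 12 dpf and 764 TPM in that of 14 dpf, where the W-hybrid mean was 734 TPM. For henmt1 the W-hybrid mean at 12 dpf by Quartz-seq was 99.6 TPM, against 135 TPM in the Z-hybrid, the other way from 14 dpf. Against trunk, 16 of 16 were called higher in germ cells, where 23.7% of all genes were.

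A second list held 29 matched genes of other Tudor domain proteins, among them 4 that the piRNA list also holds (rnf17, stk31, tdrd15 and tdrkh). Most others read chromatin marks or act in splicing in all cells. Against trunk, 16 of the 28 tested were called higher in germ cells and 5 lower, where 23.7% of all genes were called higher and 20.2% lower. Those with the largest values were akap1a, rnf17 and stk31, whose mean levels in the 10-dpf W-hybrid were 27.4 ± 4.41, 121 ± 27.6 and 61.7 ± 10.9 TPM (SD, n = 3). In trunk, akap1a had 0 TPM in both libraries, rnf17 0 and 0.05 TPM, and stk31 0 and 0.02 TPM. The lower ones were led by snd1, at a log2 value of −2.72 (SE 0.23, edgeR adjusted p = 1.67e-06), kdm4b at −1.18 (SE 0.17, 9.23e-05) and kdm4ab at −1.13 (SE 0.22, 0.00095). Close relatives of the members differed in this respect. The second tdrd7 gene, listed as TDRD7 (ENSDARG00000077523), stood at 3.22 ± 0.395 TPM in the 10-dpf W-hybrid (SD, n = 3) and at 3.04 and 5.21 TPM in trunk, unlike tdrd7a with 151 ± 34.4 TPM (SD, n = 3) and 0. The second tdrd6 gene, tdrd6b (ENSDARG00000089954), had 13.9 ± 3.52 TPM there (SD, n = 3) and 0 and 0.11 TPM in trunk.

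Between the hybrids, 1 of the 28 other Tudor genes tested was called at 10 dpf, where 4.07% of all genes were called lower and 3.06% higher. It was kdm4c, a histone demethylase gene, lower in the W-hybrid with a log2 value of −0.92 (SE 0.22, edgeR adjusted p = 0.015), and the median of the list was −0.19. No gene of the list was called at 12 dpf by Smart-seq, where 0.145% of all genes were. By Quartz-seq at 12 dpf 7 of 29 were called higher and 2 lower, again where 21.5% of all genes were called, and the median was 0.63 against 0.33. The largest were sgf29 at 4.49 (SE 0.60, edgeR adjusted p = 0.00057), tdrd6b at 3.51 (SE 0.41, 0.00034) and phf20a at 3.39 (SE 0.49, 0.00077), and the lower ones were uhrf1, a DNA methylation factor gene, at −1.31 (SE 0.33, 0.013), and AKAP1 at −1.12 (SE 0.31, 0.020). The level of tdrd6b was 45.4 and 46.9 TPM in the W-hybrid, against 4.48 TPM in the Z-hybrid, a wider gap than that of tdrd6. In that Z-hybrid library sgf29 was at 3.78 TPM and phf20a at 2.41 TPM, against 46.9 and 15.8 TPM in the Z-hybrid library of 14 dpf, where tdrd6b was at 32.3 TPM. The part of the smaller number of genes found in that library in these 3 calls was not tested. At 14 dpf akap1a was called higher at 1.61 (SE 0.36, edgeR adjusted p = 0.015), and AKAP1 at −1.86 (SE 0.31, 0.0035), lbr at −1.46 (SE 0.32, 0.014) and uhrf1 at −1.22 (SE 0.33, 0.034) were called lower, with a median of −0.033 over the 29 genes. Over all genes at 14 dpf the median was 0.31, and 9.18% were called. With age, AKAP1 was called lower at 12 than at 10 dpf in the Z-hybrid (−0.89, SE 0.23, edgeR adjusted p = 0.046), where 1.58% of all genes were called.

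The 6 genes did not vary as one block. Correlations were taken over the 14 Smart-seq germ cell libraries on log2 counts scaled to library size with TMM factors. The Pearson correlation was 0.914 for tdrd5 and tdrd9 and 0.804 for tdrd1 and tdrd7a. The correlation was 0.082 for tdrd5 and tdrd7a, both LOTUS genes, and 0.364 for the helicase genes tdrd9 and tdrd12. These values are descriptions, since the libraries differ in hybrid, age and batch, and such differences enter the correlations. Among the 10916 genes compared, those most like tdrd12 were znf839 (r = 0.949), eri2 (0.945) and TXN2 (0.936), and those most like tdrd9 were senp7b (0.958), SP3 (0.952) and parn (0.951). Those most like tdrd5 were AP3B1 (0.967), EXOSC10 (0.957) and ABCF3 (0.949), and among those most like tdrd1 were KLHL7 (0.937) and GLDC (0.936). For tdrd7a they were KLHL7 (0.923), CHD8 (0.921) and SIN3A (0.909), so that KLHL7 stood near both tdrd1 and tdrd7a. For tdrd6 they were LRP12 (0.883), ENSDARG00000091595 (0.872) and lamc1 (0.854). The correlation with piwil1 ranged from 0.419 for tdrd6 to 0.744 for tdrd12, and no member was among the 3 most like another.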

How the data were processed

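Germ cells of the W- and Z-hybrids and trunk cells were analysed in 22 libraries, whose labels give hybrid, age and method. Nothing in the labels says whether batches came from separate clutches, so p-values measure the spread between batches. The authors mapped the reads to GRCz11 with STAR 2.7.7a and RSEM 1.3.1, per the labels, and deposited for each library the expected count per gene, which need not be whole, the TPM and the effective gene length. Effective lengths and TPM were used as deposited by the authors. The labels' protocol text names Smart-seq HT for all libraries, while descriptions and the study's methods give Quartz-seq for 6 of them, which was followed. Gene names came from a table that pairs identifiers with symbols. The deposited table of all samples was not used here.

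Expected counts were rounded. Tests were run in edgeR 4.0.16 (R 4.3.3) after filterByExpr and TMM scaling, with robust quasi-likelihood fits and Benjamini-Hochberg adjustment over all genes tested. The standard error is the size of the log2 fold change over the square root of F. Fits held the 6 libraries of 10 dpf, the 8 of 12 dpf by Smart-seq, the 6 of Quartz-seq, the 14 of Smart-seq (age and its interaction), the 11 of 12 dpf (method and its interaction), or the 8 of 10 dpf with trunk. Interactions were called on the adjusted p alone. The named genes are the 6 Tudor genes, up to 3 called genes in each direction of each list and comparison, and the 3 genes with the highest Pearson correlation with each Tudor gene (log2 CPM, prior count of 2, mean TPM above 5), of which 1 is not reported here. piwil1, ddx4, TDRD7 and tdrd6b at 10 dpf were named beside these after their values were seen, and TDRD7, AKAP1 and tdrd6b were added to the list under the names in the table after the files were read. The members, lists and tests were chosen with earlier results of these data known. The scripts were tested on simulated data with known changes. Alternatives were DESeq2 1.42.0, other scalings and filters, thinned counts, other sets of libraries, a replicate block, and leaving out each library.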

Additional observations from a re-analysis of the deposited data

How the results depend on the processing

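At 10 dpf 2 of the 6 genes were called. None was called with all libraries in one fit (0) or with the 14 Smart-seq libraries in one fit (0, chosen after seeing the data), and between 1 and 3 were called with each library left out. At 12 dpf by Quartz-seq, where 0 were called, 2 were called with library size in place of TMM (tdrd1, tdrd6), 2 without a filter on low counts (tdrd1, tdrd9) and 2 with all libraries in one fit (tdrd1, tdrd6). At 14 dpf, where 0 were called, 1 (tdrd6) was called with each of DESeq2, library size alone, no filter, at least 10 counts in every library and all libraries in one fit. For the interaction of hybrid and method, 1 (tdrd7a) was called with DESeq2 or with RLE scaling, and 0 to 1 with each library left out. From 10 to 12 dpf in the Z-hybrid, 0 to 1 were called with each library left out. Against trunk, where 6 were called, asking for at least 10 counts in every library left 1 gene to test (tdrd6), which was called. The cause of the other moves was not tested. The main fits called 21.5% of all genes at 12 dpf by Quartz-seq, 9.18% at 14 dpf and 33.7% for the interaction of hybrid and method. At 14 dpf DESeq2 called 3221 genes and all libraries in one fit 4442, in place of 2126. For the other settings named here with these comparisons, the share of all genes called is not given. The counts of Tudor genes therefore do not set them apart from the rest.

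By Smart-seq, replicate numbers did not pair the samples: same-numbered libraries of the hybrids deviated together with correlations between −0.11 and 0.14. By Quartz-seq the labels number only 1 of the 2 W-hybrid libraries at each age, and the other was taken as replicate 1. These gave a correlation of 0.13 between the ages, and replicate 1 had the higher TPM for 6 of 6 genes at both ages. The share of all genes with this order was not counted. With the replicate block 4 genes were called at 12 dpf by Quartz-seq (edgeR adjusted p of 1.02e-05 for tdrd1, 9.99e-05 for tdrd9, 0.00091 for tdrd6 and 0.0071 for tdrd5), 3 at 14 dpf (0.00052 for tdrd6, 0.0090 for tdrd5 and 0.013 for tdrd12) and 1 (tdrd9) for the interaction of hybrid and method, and the counts in the other comparisons did not move. The block gave tdrd12 a log2 value of 0.0593 at 12 dpf by Quartz-seq in place of −0.20, and tdrd6 a value of 0.0265 from 10 to 12 dpf in the W-hybrid.

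Signs turned only where the main value lay from −0.1954 (tdrd12 at 12 dpf by Quartz-seq) to 0.111 (tdrd7a at 14 dpf). From 10 to 12 dpf in the W-hybrid, tdrd5 was 0.0332 with library size alone, 0.0139 with at least 10 counts and 0.0013 with thinned counts, and tdrd6 was 0.0393, 0.0187 and 0.00077. From 12 to 14 dpf tdrd6 was 0.057 with library size alone. With each library left out, tdrd7a ranged from −0.13 to 0.0846 at 10 dpf and from −0.25 to 0.34 at 14 dpf. At 12 dpf tdrd5 ranged from −0.18 to 0.10 and tdrd9 from −0.26 to 0.0089 by Smart-seq, and tdrd12 from −0.45 to 0.0175 by Quartz-seq. From 12 to 14 dpf the ranges were −0.15 to 0.22 for tdrd5, −0.15 to 0.0878 for tdrd6, −0.46 to 0.28 for tdrd7a and −0.33 to 0.30 for tdrd12. From 10 to 12 dpf in the W-hybrid they were −0.12 to 0.16 for tdrd5, −0.13 to 0.0736 for tdrd6 and −0.11 to 0.18 for tdrd9.

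Over all genes, the 1433 calls at 10 dpf became 60 with all libraries in one fit, 183 with the 14 Smart-seq libraries, and 477 to 2414 with each library left out. The 29 at 12 dpf by Smart-seq became 99 with DESeq2, 16 with at least 10 counts, 51 with the 14 libraries and 18 to 48 with each left out. The 2126 at 14 dpf became 3221 with DESeq2, 4442 with all libraries and 3412 with the replicate block. From 10 to 12 dpf the 342 in the Z-hybrid became 941 with DESeq2, 90 with all libraries, 43 with the block and 0 to 1314 with each left out. Over the same interval the 0 in the W-hybrid became 103 with DESeq2, 0 to 28 with each left out and 0 to 5 otherwise. From 12 to 14 dpf the 3 calls became 49 with DESeq2 and 1 to 80 with the other alternatives. For hybrid and age DESeq2 called 475 in place of 0, and for hybrid and method at least 10 counts left 4986 of 8054. Every Tudor gene had at least 872 counts in every germ cell library.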
